A study of Drosophila melanogaster with 4 samples.

Results

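The clusters described here are regions enriched for the histone variant H2Av that start in the 2 Mb at the centromere end of 4 assembled chromosome arms of Drosophila melanogaster. They were chosen by position alone. On FlyBase release 5 the window of 2L spanned bases 21011545 to 23011544, that of 3L bases 22543558 to 24543557 and that of X bases 20422828 to 22422827. The window of 3R, whose numbering starts at the centromere end, spanned bases 1 to 2000000. They held 499 of the 6778 clusters of replicate 1, 486 of the 6672 of replicate 2 and 555 of the 7576 of the authors' combined list. The material was heads sieved from mixed adults of the wild-type Oregon-R strain, raised in population cages. Chromatin was crosslinked with formaldehyde, and 2 ChIP libraries for H2Av, labelled 9751, and 2 input libraries were sequenced. No label tells whether separate cages or collections of flies stand behind the replicates, and their spread may be a technical one. Heads hold neurons, glia, photoreceptors and other cells, and a cluster cannot be assigned to a cell type.

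H2Av is the H2A variant of the fly and serves in the places of both H2A.Z and H2A.X of other animals. It is deposited at nucleosomes next to active promoters, it is phosphorylated at DNA breaks, and in flies it is also known to take part in the formation of heterochromatin. Towards a centromere, fly chromosome arms pass from gene-rich euchromatin into pericentric heterochromatin, which is dense in transposon remnants and repeats and in which some genes are nevertheless transcribed. Heterochromatin nearer to the centromere was assembled as separate scaffolds on this release, so the end of an arm here is the end of its assembled sequence and not the centromere. Sequence gaps and the share of reads that can be placed uniquely were not examined, and their part in any value below was not tested. A step without a cluster is one in which none was called.

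H2Av clusters were dense near the centromere end of 2L, less so on 3L and 3R, and sparse on X. Summed over the 2 Mb, clusters covered 42.7% of the 2L window in replicate 1 and 37.9% in replicate 2, a mean of 40.3 ± 3.40% (SD, n = 2). The 3L window was covered to 35.2% and 30.2% (32.7 ± 3.53%), and the 3R window to 29.5% and 29.0% (29.2 ± 0.417%). The X window was covered to 17.2% and 11.8% (14.5 ± 3.78%). The lowest 2L value lay above the highest 3L value and every X value lay below every other, whereas 3L and 3R differed by less than the SD of 3L. All 4 windows together were covered to 31.1% and 27.2%, against 23.5% and 22.9% for the rest of the same arms.

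Each window was then set against the rest of its own arm. The ratio of coverage was 2.04 in replicate 1 and 1.79 in replicate 2 on 2L (1.91 ± 0.178, SD, n = 2), where the rest of the arm was covered to 20.9% and 21.2%. It was 1.55 and 1.32 on 3L (1.43 ± 0.161) and 1.25 and 1.16 on 3R (1.21 ± 0.0610). On X it was 0.643 and 0.531 (0.587 ± 0.0788), with 26.7% and 22.3% in the rest of the arm. The direction was thus the same in both replicates on every arm, upward on the 3 autosomal arms and downward on X. Each ratio differed from 1 by more than the SD of its replicates. That SD is a spread between 2 libraries. How far other 2 Mb stretches of an arm depart from its average was not examined.

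The excess on 2L and 3L came with more clusters per Mb. On 2L there were 71.5 and 77.5 clusters per Mb in the window, against 44.1 and 45.3 in the rest of the arm. On 3L there were 79.5 and 82.0, against 48.1 and 50.8. The median cluster was 3451 bp and 3332 bp wide in the 2L window, somewhat above the 3071.5 bp and 3124 bp of the rest of that arm. On 3L it was narrower near the centromere end in both lists, at 2835 bp and 2305 bp against 3244 bp and 3113 bp. The 3R window held 55.5 and 53.0 clusters per Mb, against 49.1 and 52.5, and its median widths were 3406 bp and 3620 bp, against 3205 bp and 3143 bp. On X both number and width were lower: 43.0 and 30.5 clusters per Mb against 51.0 and 49.9, with medians of 2428.5 bp and 2735 bp against 3250 bp and 3103 bp.

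**Figure D1:**
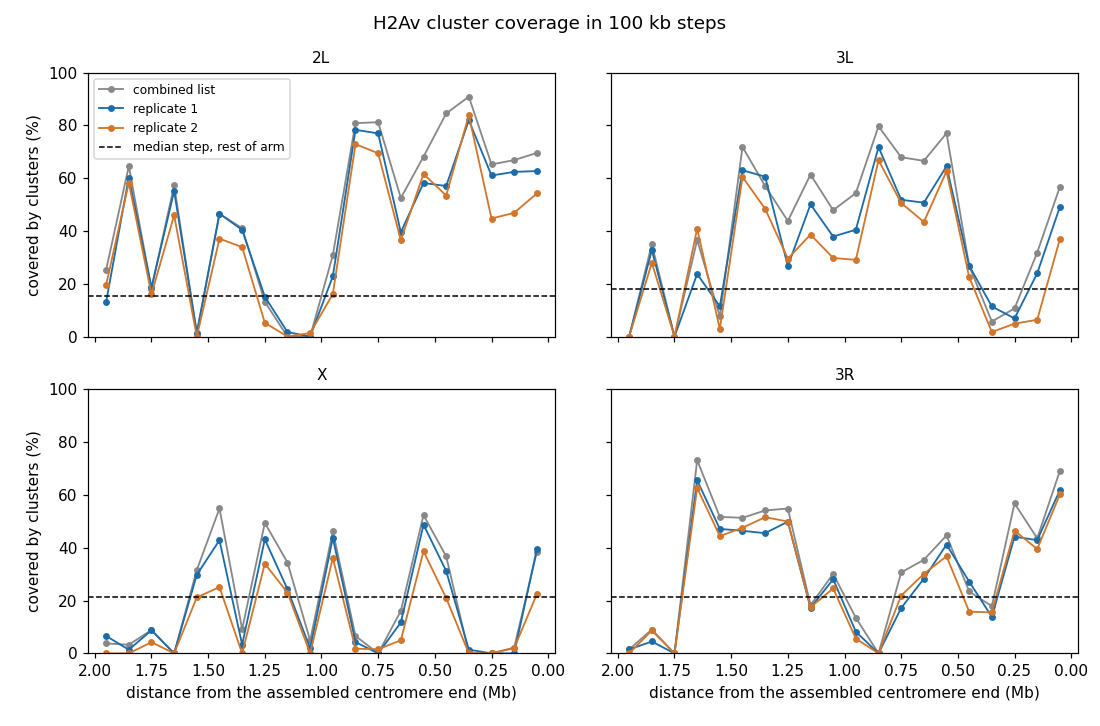
Percent of each 100 kb step covered by H2Av clusters, against the distance in Mb from the assembled centromere end, for replicate 1, replicate 2 and the combined list. The dashed line is the median of the 100 kb steps in the rest of the arm (mean of both replicates). On 2L all of the last 9 steps lie above it, and on X steps of moderate coverage lie between others with little or none.

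Read in 100 kb steps towards the centromere, 2L showed an abrupt rise. The first 700 kb, from 21011545 to 21711544, alternated between steps of up to 60.3% and 58.3% coverage in the 2 replicates and a step of 1.46% and 0%. The next 300 kb, from 21711545 to 22011544, were nearly empty, with 5.61% and 2.19% coverage and only 6 and 3 clusters. After an intermediate step of 22.8% and 16.1%, coverage jumped to 78.3% in replicate 1 and 72.9% in replicate 2 at 22111545. It did not fall below 39.5% and 36.5% in any of the 9 steps from there to the end of the arm.

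Over those last 900 kb of 2L, coverage was 64.2% and 58.2% (61.2 ± 4.29%, SD, n = 2). The most covered step of all 80 ran from 22611545 to 22711544 and reached 82.0% and 83.8%. The next on 2L were those from 22111545 and from 22211545, the latter with 77.0% and 69.4%. Of the 20 steps of 2L, 10 lay above the 90th percentile of the 210 steps in the rest of the arm, which was 48.0%. None exceeded the highest of those, at 88.6%. The 3 least covered steps, starting at 21411545, 21811545 and 21911545, each held a single cluster in 1 replicate and none in the other.

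The broadest clusters of 2L lay within this dense stretch. The widest matched pair was a cluster of 33.8 kb in replicate 1, at 22167890 to 22201688, that lay wholly inside one of 34.5 kb in replicate 2, at 22167491 to 22201946. Its scores were 1.47 and 1.48. The next, at 22963718 to 22986174 in replicate 1, was 22.5 kb and 28.7 kb wide and was also the last cluster before the end of the arm in both replicates. By score, the 2 highest pairs were a narrow one from 22267170 to 22271610, with scores of 2.63 and 1.53, and one from 22462839 to 22473381, with 2.02 and 2.04. The first of these scored far higher in replicate 1 than in replicate 2. The longest stretch of the window without a cluster in either replicate, 146 kb from 21853385 to 21999819, also held none in the combined list and ended before the intermediate step.

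On 3L, coverage rose earlier and fell again before the end of the arm. The window opened within an empty region: no cluster of either replicate lay between 22543558 and 22680525 (137 kb, cut by the edge of the window), nor between 22743037 and 22848442 (105 kb). The step from 22643558, between these stretches, was covered to 32.8% and 28.0%. Coverage was 23.7% and 40.9% in the step from 22843558, and 11.5% and 2.86% in that from 22943558. From 23043558 to 24043557, a run of 10 steps had a coverage of 51.8% and 45.9% (48.8 ± 4.12%, SD, n = 2), with single steps between 26.7% and 71.8% in the first list and between 29.1% and 66.8% in the second. The most covered steps started at 23643558 (71.8% and 66.8%), at 23943558 (64.5% and 62.6%) and at 23043558 (63.0% and 60.4%). Of the 20 steps, 4 exceeded the 90th percentile of the 225 steps in the rest of the arm (51.5%).

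Closer to the centromere than 24043557, coverage of 3L dropped. The 4 steps from 24043558 to 24443557 were covered to 17.3% and 8.89%. Replicate 2 placed 11 clusters there and replicate 1 placed 21. In the step from 24343558 to 24443557 the replicates differed most, with 24.0% from 12 clusters in replicate 1 and 6.36% from 5 clusters in replicate 2. The last 100 kb rose again to 49.1% and 36.9%. The inner 1 Mb of the 3L window exceeded the outer 1 Mb by only 9.13 and 4.66 percentage points (6.89 ± 3.16, SD, n = 2), against 34.9 and 32.2 points on 2L (33.5 ± 1.86).

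The widest matched pair of 3L joined a cluster from 23673977 to 23709796 in replicate 1 (35.8 kb) to a replicate 2 partner of 19.7 kb that began at 23689922. Another replicate 2 cluster, from 23671202 to 23675616, overlapped the start of the same replicate 1 cluster. The partner's 19.7 kb is thus not all that replicate 2 called there. The next widest pair, from 24516143 to 24532416, lay in the last 100 kb and was 16.3 kb and 15.1 kb wide. The highest scores belonged to a cluster from 23110071 to 23121889 (2.43 and 1.99) and to a narrow one from 24012826 to 24016872, which scored 2.59 in replicate 1 and 1.53 in replicate 2.

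The X chromosome had no dense stretch of this kind. Steps of moderate coverage, alone or in neighbouring pairs, lay between steps with little or no coverage. In 9 of the 20 steps coverage was below 5% in both replicates, or 45% of them, whereas 15.2% of the 204 steps in the rest of the arm were that low. The median step was covered to 4.90% (mean of both replicates), against 21.4% in the rest of X, and none of the 20 reached the 90th percentile of the rest (50.9%). The most covered steps started at 21822828 (48.8% and 38.7%), 21422828 (43.8% and 36.1%) and 21122828 (43.2% and 34.0%). Replicate 1 lay above replicate 2 in each of these.

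Stretches over 50 kb without a cluster in either replicate filled 54.2% of the X window, against 19.4% of the window on 2L, 22.1% on 3L and 29.9% on 3R. The longest inside the 4 windows was on X, 263 kb from 22037591 to 22300538, and the combined list had 1 cluster in it. This ranking depends on the cut of the windows. The 137 kb stretch at the outer edge of 3L continued through the 100 kb steps from 22443558 and 22343558, both at 0% in both replicates. Uncut, it would be longer than the one on X. Clusters resumed in the last 100 kb of X, where coverage was 39.4% and 22.4%. This step held the widest matched pair of the X window, from 22404514 to 22423173 in replicate 1 (18.7 kb) with a replicate 2 partner of 10.6 kb. A further replicate 2 cluster, from 22417478 to 22423007, lay within the same replicate 1 cluster. The next widest pair ran from 21909583 to 21922539 in replicate 1 and was 12957 bp and 14961 bp wide. The 2 highest in score began at 21480667 (2.07 and 2.13) and at 21176696 (1.82 and 2.13).

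On 3R, which is numbered from the centromere end, coverage rose and fell more than once. Moving towards the centromere, the first 300 kb of the window were nearly empty, with 2.00% and 2.90% coverage. A block of 5 steps from 1700000 down to 1200001 was then covered to 50.9% and 51.3% (51.1 ± 0.239%, SD, n = 2), and every step of it lay between 44.4% and 65.5%. Coverage fell to 17.3% and 17.5% in the step from 1100001 to 1200000 and was 28.1% and 24.6% in that from 1000001 to 1100000. It then fell to 8.47% and 9.17% between 1000000 and 700001. There, 155 kb from 796863 to 951505 held no cluster in any of the 3 lists. Coverage rose to 41.2% and 36.8% in the step from 500001 to 600000 and fell again to 13.8% and 15.5% in that from 300001 to 400000. Coverage was then 49.6% and 48.7% in the 300 kb next to the end, and the last step, from 1 to 100000, reached 61.8% and 60.2%.

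The inner 1 Mb of 3R was covered 2.10 percentage points less than the outer 1 Mb in replicate 1 (difference of -2.10) and 3.51 points less in replicate 2 (-3.51), a mean of -2.81 ± 0.994 (SD, n = 2). This sign depended on where the window was divided, since the innermost 500 kb were covered 13.3 points more than the outermost 500 kb. On X the inner 1 Mb was higher by 1.85 and 2.10 points, but the difference was -0.156 points in the combined list. The widest matched clusters of 3R had like widths in both lists. The first was 27.8 kb wide in replicate 1, where it began at 1193267, and 28.4 kb in replicate 2, where it began at 1192695. It was followed by a pair at 536329 to 558857 with 22.5 kb and 21.1 kb. The highest scores were those of 1371873 to 1382681 (2.09 and 1.95) and 466032 to 476940 (1.81 and 2.12).

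On all 4 arms the mean coverage of the last 100 kb of assembled sequence lay above the median step of the rest of the arm. On X the last step was covered to 39.4% in replicate 1, against 26.7% for the rest of the arm. In replicate 2 it hardly differed from the rest of X (22.4% against 22.3%). The last step ranked 6th by coverage among the 20 of its window on 2L, 8th on 3L, 5th on X and 2nd on 3R. Its mean coverage lay above that of 196 of the 210 steps in the rest of 2L, 180 of 225 on 3L, 130 of 204 on X and 242 of 259 on 3R. On 3L and X each list held a cluster that ran past the stated end of the arm, by 115 bp and 447 bp on 3L and by 346 bp and 180 bp on X in replicates 1 and 2. On 2L the last cluster stopped 25370 bp and 26782 bp short of the end, and on 3R the first one began at base 7000 in replicate 1 and 12214 in replicate 2.

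**Figure D2:**
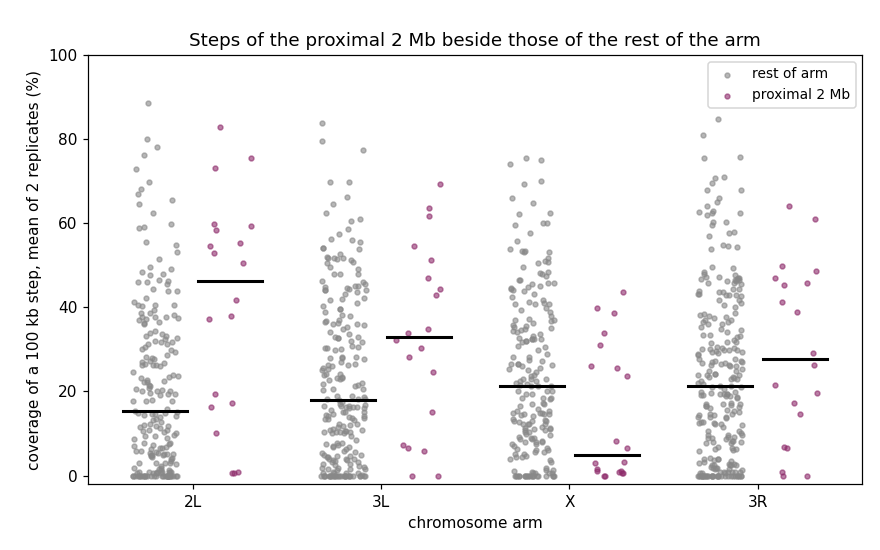
Coverage of single 100 kb steps, as the mean of both replicates in percent, in the rest of each arm (grey) and in its proximal 2 Mb (purple). Bars are medians: the proximal median was 46.2% against 15.3% on 2L and 4.90% against 21.4% on X.

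The median step differed from that of the rest of the arm in the same sense as the totals. The median step was covered to 46.2% in the 2L window, against 15.3% in the rest of 2L. On 3L these medians were 33.1% and 17.9%, and on 3R 27.8% and 21.2%. Of the 20 steps of 3R, 2 lay above the 90th percentile of the 259 steps in the rest of that arm (54.0%). Above the median of the rest lay 12 of the 20, and at the upper end 3R did not stand out from its arm. No step of any of the windows was covered more than the most covered step elsewhere on its arm.

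The replicates agreed well on 3R and 2L and less well on 3L and X. The length common to both lists made up 74.6% of all called length in the 3R window and 69.3% in the 2L window. The rest of these arms had 70.4% and 69.4%. On 3L the window had 52.6%, against 69.3% in the rest of the arm, although it was more densely covered. On X it had 56.8%, against 67.5%. Expressed as a share of each list, the common length on 3L was 64.0% of replicate 1 and 74.6% of replicate 2, against 82.1% and 81.6% in the rest of that arm. On X it was 61.2% and 88.8%, against 73.9% and 88.6% in the rest of X, so that only the share of replicate 1 was lower in the window.

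**Figure D3:**
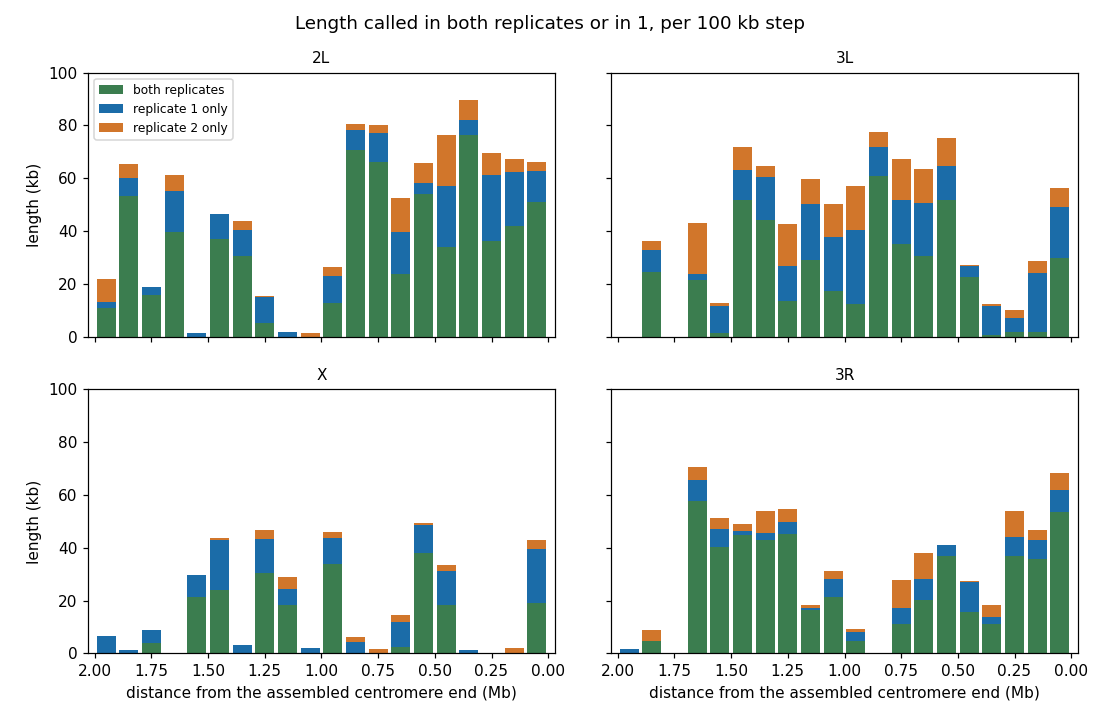
Length in kb per 100 kb step that was called in both replicates (green), in replicate 1 alone (blue) or in replicate 2 alone (orange), stacked, against the distance in Mb from the assembled centromere end. Green dominates on 3R and in the first steps of the dense stretch on 2L, whereas much of 3L is blue or orange.

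Agreement also varied from step to step. In the dense stretch of 2L, 87.8% of the called length was shared in the step from 22111545 and 85.3% in that from 22611545, but only 44.3% in the step from 22511545, although both replicates covered that step to a like extent (57.0% and 53.4%). The unequal lengths would have allowed a share of up to 93.7% there. On 3L, the step from 23543558 was covered to 40.5% and 29.1% with 22.0% shared, where up to 71.8% was possible. In the 3 steps from 24143558 to 24443557 the shared part fell to 7.79%. Replicate 1 covered 14.1% of them and replicate 2 only 4.33%, so the unequal lengths also limited the possible share there. Within the block of 3R from 1700000 to 1200001 the share was 82.7%, and no step of it fell below 78.9%. Across the steps of an arm, share and coverage rose together, with a Spearman rho of 0.77 on 2L (20 steps), and of 0.68 on 3L, 0.90 on X and 0.67 on 3R (18 steps each). These steps share their libraries, and a longer covered length overlaps more often, so rho is given as a description.

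As a profile the lists followed each other closely in spite of this. Between replicates 1 and 2, the coverage of the 20 steps had a Spearman rho of 0.94 on 2L, 0.93 on 3L, 0.87 on X and 0.98 on 3R. Pearson's r was 0.98, 0.94, 0.97 and 0.98 in the same order. In the rest of the arms rho was 0.96 on X and 0.97 on each of the others. Both lists thus ranked the steps alike, while on 3L much of the called length inside a step differed.

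Replicate 2 was lower than replicate 1 over most of 3 windows. Its coverage was lower in 16 steps and higher in 4 on 2L, lower in 16 and higher in 2 on 3L, and lower in 16 and higher in 2 on X. On 3R it was lower in 9 and higher in 9. In the rest of 2L it was lower in 94 steps and higher in 86, and in the rest of 3L lower in 97 and higher in 101. In the rest of X it was lower in 153 and higher in 31, and in the rest of 3R lower in 98 and higher in 130. The largest gaps by arm beside that on 3L were 17.8 points on X from 20922828 to 21022827 (42.9% and 25.1%), 16.3 points on 2L from 22711545 to 22811544 (61.0% and 44.7%), and 11.4 points on 3R from 400001 to 500000 (27.2% and 15.8%). On 3L the opposite also occurred, with 23.7% in replicate 1 and 40.9% in replicate 2 from 22843558 to 22943557.

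Counted as clusters, 350 of the 499 members in replicate 1 touched a cluster of replicate 2, or 70.1%, against 76.2% of all clusters in the series and 80.0% in the rest of these arms. Of the 486 members in replicate 2, 412 touched a cluster of replicate 1, or 84.8%, against 81.4% in the series and 80.9% in the rest of these arms. The difference between lists was widest on X, where 45 of 86 clusters of replicate 1 (52.3%) and 54 of 61 of replicate 2 (88.5%) had a partner. In the rest of X the shares were 73.0% and 87.8%, so that the lists also differed there. On 2L they were 76.2% and 91.6% in the window and 79.9% in each list in the rest of the arm. On 3L they were 66.7% and 77.4%, against 82.6% and 79.8%. On 3R they were 81.1% and 84.0%, against 83.5% and 77.4%.

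Clusters found in 1 replicate alone were narrow here, as elsewhere on the arms, but those of replicate 1 on 3L did not score lower. The 149 unshared members of replicate 1 had a median width of 1751 bp and the 74 of replicate 2 of 1613 bp, against 4249 bp and 3472 bp for shared members. On 3L the 53 unshared clusters of replicate 1 had a median score of 0.998 and the 106 shared ones of 0.990. In the rest of 3L the medians were 0.674 for unshared and 1.00 for shared clusters. On 2L the 13 unshared clusters of replicate 2 also scored as high as the shared ones (0.969 and 0.953). On 3R the usual gap was present in both lists, with 0.598 against 1.09 in replicate 1 and 0.817 against 1.11 in replicate 2, and on X it was 0.940 against 1.32 and 0.958 against 1.22.

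**Figure D4:**
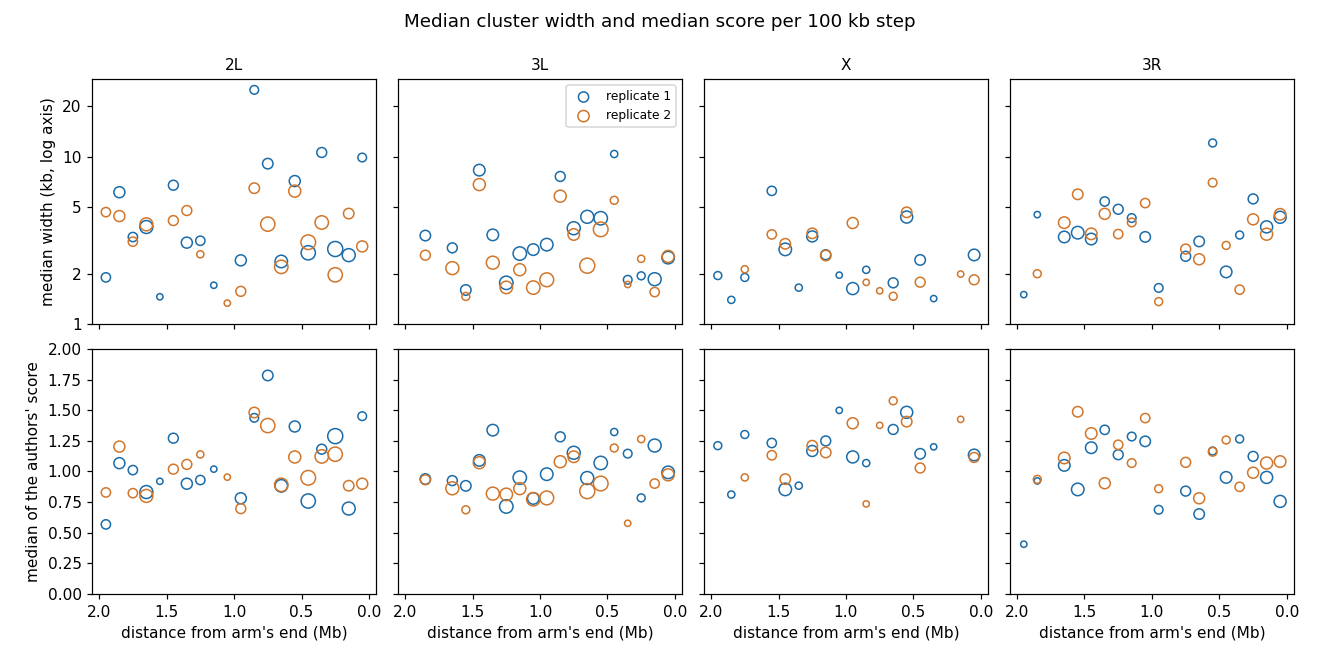
Median cluster width (kb, log axis, upper row) and median of the authors' score (lower row) of clusters starting in each 100 kb step, against the distance in Mb from the arm's end. Circle area grows with the number of clusters; the widest medians of replicate 1 on 2L lie in the last 900 kb, and replicate 2 lies below them.

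Width and score did not rise steadily towards the centromere on any arm. On 2L the Spearman rho of step order, counted towards the centromere, with coverage was 0.59 in replicate 1 and 0.46 in replicate 2, but with median width it was 0.23 and -0.19. With median score it was 0.28 and 0.16. On the other arms rho with coverage lay between -0.02 and 0.20. With median score rho was 0.33 and 0.29 on 3L, 0.14 and 0.38 on X, and 0.02 and -0.22 on 3R. With median width it was -0.07 and 0.07 on 3L, 0.06 and -0.38 on X, and 0.19 and -0.07 on 3R. These are descriptions over at most 20 neighbouring steps of the same libraries, and steps with few clusters give unsteady medians.

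Steps with at least 3 clusters in each replicate were ranked by the mean of the medians of both replicates, so that a step named here need not rank first in either list. On 2L the score was highest in the step from 22211545 to 22311544 (1.78 and 1.37) and lowest in the step farthest from the centromere (0.568 and 0.829). The widest clusters on 2L by this mean were in the step from 22111545, with medians of 24975 bp from 4 clusters in replicate 1 but 6479 bp from 7 clusters in replicate 2. On 3L the step from 23643558 scored highest (1.28 and 1.08) and that from 23243558 lowest (0.714 and 0.813). On X the step from 21722828 to 21822827 had the highest score by this mean (1.34 and 1.58) and the lowest width (1767.5 bp and 1470 bp), from 6 and 3 clusters. On 3R the step from 1000001 to 1100000 scored highest (1.25 and 1.44).

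As a whole, scores in the windows were close to those of the rest of the arm. The medians of replicates 1 and 2 were 0.984 and 0.958 on 2L (0.847 and 0.969 in the rest), 0.996 and 0.863 on 3L (0.901 and 0.968), and 0.973 and 1.04 on 3R (0.878 and 0.997). On X they were 1.17 and 1.19 (1.11 and 1.13). X had the fewest clusters and the highest median score of the 4 windows in both lists. The rest of X likewise had the highest median score among the rests of the 4 arms in both lists. On 2L and 3L the direction against the rest of the arm differed between replicates, with a higher median in replicate 1 and a lower one in replicate 2. Across clusters, score and width were less tightly linked in the 3L window (rho of 0.57 and 0.67) than in the rest of that arm (0.71 and 0.76), and the same held for 2L (0.69 and 0.61 against 0.77 and 0.78) and X (0.61 and 0.72 against 0.73 and 0.75). On 3R rho was 0.70 and 0.76 against 0.74 and 0.75.

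Replicate 2 often divided a broad region of replicate 1 into several clusters on 2L and 3L. Of the replicate 1 clusters with a partner, 34 of 109 on 2L (31.2%) touched more than 1 cluster of replicate 2, and 27 of 106 on 3L (25.5%). In the rest of these arms the shares were 16.2% and 16.5%. In the opposite direction, 11.3% and 12.6% of replicate 2 clusters touched more than 1 of replicate 1, against 14.2% and 15.5% in the rest. On 3R the share for replicate 1 was lower in the window than in the rest of the arm, at 11.1% against 16.4%. A broad cluster touches several others more easily, and the 2L window held 22 clusters over 10 kb in replicate 1 but 13 in replicate 2.

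The dense stretch of 2L holds examples of this. In the step from 22211545 to 22311544 replicate 1 had 7 clusters and replicate 2 had 15, and in that from 22611545 to 22711544 they had 6 and 13. In the 2L window as a whole, 29.6% and 33.8% of the gaps were at most 1 kb, against 23.1% and 26.5% in the rest of the arm. On 3L the lists differed, with 17.1% of gaps that short in replicate 1 and 30.7% in replicate 2. When clusters separated by up to 1 kb were joined, the numbers became 101 and 103 on 2L, the median widths 5545 bp and 5365 bp, and the clusters over 10 kb numbered 30 and 24. On 3L the clusters over 10 kb changed from 14 and 10 to 16 and 17. The length shared by the replicates hardly moved, to 71.0% on 2L and 54.0% on 3L.

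Matched clusters kept their order of score moderately well. Over the pairs of all 4 windows the Spearman rho was 0.65 for score and 0.65 for width (350 pairs), with a Pearson r of 0.65 for score. By arm, rho for score was 0.68 on 2L (109 pairs), 0.51 on 3L (106 pairs), 0.67 on X (45 pairs) and 0.69 on 3R (90 pairs). These are correlations across clusters, which share their libraries. The same replicate 2 cluster can be the partner of several replicate 1 clusters, so its values can enter repeatedly. The replicate 2 partner was narrower in 66 pairs and wider in 43 on 2L, and narrower in 42 and wider in 48 on 3R.

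The combined list covered more than either replicate in all 4 windows, and also in the rest of each arm. Its coverage was 47.9% of the 2L window, 42.0% of that on 3L, 34.0% on 3R and 20.0% on X, by the authors' combined calls. In the rest of the 4 arms together it covered 27.5%, against 23.5% and 22.9% in replicates 1 and 2. In the step of 2L from 22511545 to 22611544, where the replicates shared least of the dense stretch, it covered 84.5%. Of its 102 clusters in the X window, 30 touched no cluster of either replicate, or 29.4%, against 19.5% in the rest of X. The share was 13.3% on 2L, 13.4% on 3L and 14.5% on 3R, each slightly below that of the rest of its arm. Their median width was between 1095 bp on 2L and 1213 bp on X, under the smallest width in the replicate lists.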

How the data were processed

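H2Av ChIP was measured in 2 replicates, with 2 input libraries, per the labels. The deposited values are cluster lists, 1 per replicate and 1 combined, on release 5 of the FlyBase assembly, per the file headers. The submitters' processing notes name Bowtie 0.12.7, a read aligner. How clusters were called, at which threshold, and how the combined list was made is not given in the sources used. A cluster is deposited with its start and end and with the authors' score, whose scale no header names. Where scores of the 2 lists are set side by side, 1 shared scale is assumed.

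Tables were handled in Python 3.11.15 using numpy 2.4.6 and pandas 2.3.3. Clusters were members if their start lay in the 2 Mb at the centromere end of 2L, 3L, X or 3R. Coverage of a whole 2 Mb window is the summed width of its members over its length. Coverage of a 100 kb step is the length inside clusters within the step, and widths and scores of a step are those of clusters starting there. Shared length is length in both replicate lists over length in either, and clusters touch if they share at least 1 bp. The interval code was checked on lists of known overlap.

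No test was made: an exact permutation test over 2 replicates cannot reach a threshold of 0.05, and steps or clusters are not replicates. Depth is unknown, since the lists hold no read counts. The members, steps and named regions were chosen with earlier results of these data known. Named on each arm were the 2 matched clusters of highest mean score, the 2 of largest mean width, the longest stretch without a cluster in either replicate, the 3 most and 3 least covered steps and the step where the replicates differed most. A matched cluster is a replicate 1 cluster with the replicate 2 cluster that shares most of its bases. Runs of neighbouring steps, the joining of clusters for counts over 10 kb, the steps named for score or width, and those named for shared length were chosen after their values were seen. The alternatives tried were the combined list, only those clusters in the upper 50% by score, the window and step lengths, clusters joined across gaps of up to 1 kb, another overlap measure, clipping at the window's edge and each replicate alone. Genes were not assigned, since only a gene table of release 6 was used here and no coordinates were moved between releases.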

Additional observations from a re-analysis of the deposited data

Results flagged for a closer look

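The coverage of the centromere end relative to the rest of the arm went in opposite directions on different arms, in every replicate. It was 1.91 on 2L, 1.43 on 3L and 1.21 on 3R, but 0.587 on X. The change along the window also differed in sign. The inner 1 Mb exceeded the outer 1 Mb by 33.5 percentage points on 2L, 6.89 on 3L and 1.97 on X, whereas on 3R the difference was -2.81. Neither difference between arms was tested, and all arms were read from the same 2 libraries.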

How the results depend on the processing

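Of 52 alternative values for 16 comparisons, 34 stayed within the spread of the replicates (for correlations, within 0.05). The percent of length shared is 1 value for both lists, and its spread was taken from the common length as a share of each list. That SD was 19.5 on X but 1.22 on 3R. On X the percent of replicate 1 clusters with at least 50% of their length in replicate 2 was 44.2, which counted as unmoved from 56.8. On 3R 76.8 counted as moved from 74.6. The 16 further values that use 1 replicate alone are those given for each replicate in the text; with 2 replicates they cannot lie outside the SD and say nothing about stability. The ratio of the 2 Mb window to the rest of the arm kept its direction on all 4 arms in each alternative run. With a 1 Mb window it was 2.70 on 2L and 1.14 on 3R, and with the upper 50% of clusters by score it was 1.30 on 3R. The difference between inner and outer 1 Mb changed sign in 2 alternatives: on X it was -0.156 in the combined list, and on 3R it was 13.3 between the inner and outer 500 kb. Otherwise it moved to 27.3 on 2L, 2.91 on X and -7.08 on 3R in the upper 50% by score, to 42.3 on 2L, 11.6 on 3L and -0.899 on 3R in the combined list, and to 4.54 on X with 500 kb parts. The percent of length shared was 59.9 on 2L, 42.0 on 3L and 76.8 on 3R in the upper 50% by score. The step correlation was 0.833 on 3L and 0.813 on X in the same subset, and 0.997 on X in steps of 200 kb. Clusters over 10 kb in replicate 2 numbered 24 on 2L and 17 on 3L after joining across 1 kb. For all of these, the cause was not tested. The joining of clusters for counts over 10 kb was added after the data had been seen. No paired analysis was possible because no value comes from a test and the lists hold no input values to pair with the ChIP values; ratios and differences were formed within each replicate. Read depth is unknown, and how many weak clusters either list missed was not tested.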
